A study of Homo sapiens with 11 samples.

Results

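The genes described here encode calcium, TRP, sodium and chloride channels: the pore-forming and auxiliary subunits of voltage-gated calcium (CACN) and sodium (SCN) channels, the TRPC, TRPM and TRPV cation channels, the HCN pacemaker channels, the leak channel NALCN, the mechanically gated PIEZO channels, and the anoctamin (ANO) and CLCN chloride channel families. They were chosen by symbol among the protein-coding rows of a gene count table, which gave 88 of 78932 genes. Of these, 86 are channels or channel subunits in 14 families. The remaining pair, TRPC4AP and TRPC5OS, match by symbol only: TRPC4AP is a ubiquitin ligase adaptor named for its interaction with TRPC4, and TRPC5OS is transcribed opposite TRPC5. A gene was called detected with 10 or more counts in at least 3 of the 11 libraries. By this rule 55 of the 88 were detected, and the same 55 passed the filter of the test.

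The samples were RNA-seq libraries of engineered myometrial microtissues, called EMMIs, formed from the line hTERT-HM, human uterine smooth muscle cells immortalised with telomerase. There were 3 libraries on day 1 of formation, 4 on day 3 and 4 on day 6. All carried the genotype label WT and came from this 1 cell line, with no agent named beside the day. The labels do not say whether replicates were separate tissues or cultures, so each p-value measures the spread between these libraries, which may be technical. Libraries held 28071813 to 33021509 counts, so that 3 counts corresponded to 0.0909 to 0.115 CPM (counts per 1e+06 counts of the library).

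In smooth muscle of the uterus, contraction follows calcium entry. L-type calcium channels open on depolarisation and carry most of that calcium, and their auxiliary subunits set how many reach the membrane. Cation entry through TRP, NALCN and voltage-gated sodium channels depolarises the cell, as does chloride leaving through calcium-activated anoctamins, while PIEZO channels open under membrane stretch. Several CLCN and ANO proteins are not surface channels but act in endosomes, lysosomes or as lipid scramblases.

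Levels below are CPM scaled by TMM factors, the trimmed-mean correction of edgeR. Levels of different genes are compared only after division by the length of the longest annotated transcript, as CPM per kb. Day 3 against day 1 is called the early step, and day 6 against day 3 the late step. A gene rose or fell where edgeR's quasi-likelihood test gave an adjusted p under 0.05 after Benjamini-Hochberg adjustment over all 18245 genes tested; adjusted p-values below are from that test. Each log2 fold change is of the later day over the earlier, with its standard error (SE).

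The 33 undetected genes included CACNA1B, CACNA1E, CACNA1F, CACNA1H and CACNA1I among the calcium channel pores, CACNB2 and CACNB4, CACNG1 to CACNG5, SCN4A and SCN10A, SCN2B, HCN4, TRPC5 and TRPC7, TRPM1, TRPM5 and TRPM6, TRPV5 and TRPV6, ANO1, ANO4, ANO5 and ANO9, CLCN1 and TRPC5OS. Of these, 28 had no library with 10 counts, and TRPV5, an epithelial calcium channel, had 0 counts in every library. ANO1, the calcium-activated chloride channel of many smooth muscles, had 2, 2 and 1 counts on day 1, 2, 0, 4 and 3 on day 3, and 6, 9, 12 and 5 on day 6. Among voltage-gated calcium channel pores, CACNA1H, the T-type channel Cav3.2, did not exceed 4 counts in any library. Just below the detection threshold lay ANO4 and CACNA1I, each with 2 libraries at 10 counts, and just above it CACNA1D, SCN7A and TRPM8, each with 3. CACNA1D and SCN7A passed only through day 6 and TRPM8 only through day 1, so these genes had to differ between days.

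Per unit of transcript length and averaged over the libraries, the most abundant channels were the stretch-gated PIEZO1, TRPV2, ANO10 and CLCN7, although on day 6 TRPV2 lay above PIEZO1, and ANO6 and CLCN3 above CLCN7. PIEZO1 averaged 31.6, 33.6 and 29.6 CPM per kb on days 1, 3 and 6, and TRPV2 averaged 31.5, 26.8 and 34.0 CPM per kb. ANO6, the phospholipid scramblase TMEM16F, averaged 21.2, 21.6 and 20.5 CPM per kb. By contrast, the summed level of all Cav pore genes was 1.44 ± 0.0728 CPM per kb on day 1 (SD, n = 3), 1.26 ± 0.198 on day 3 and 1.995 ± 0.175 on day 6 (SD, n = 4 each). The summed Nav pores reached 4.95 ± 0.218 CPM per kb on day 6 (SD, n = 4). The table is from bulk RNA, in which fewer cells of a type and less RNA per cell cannot be told apart.

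**Figure D1:**
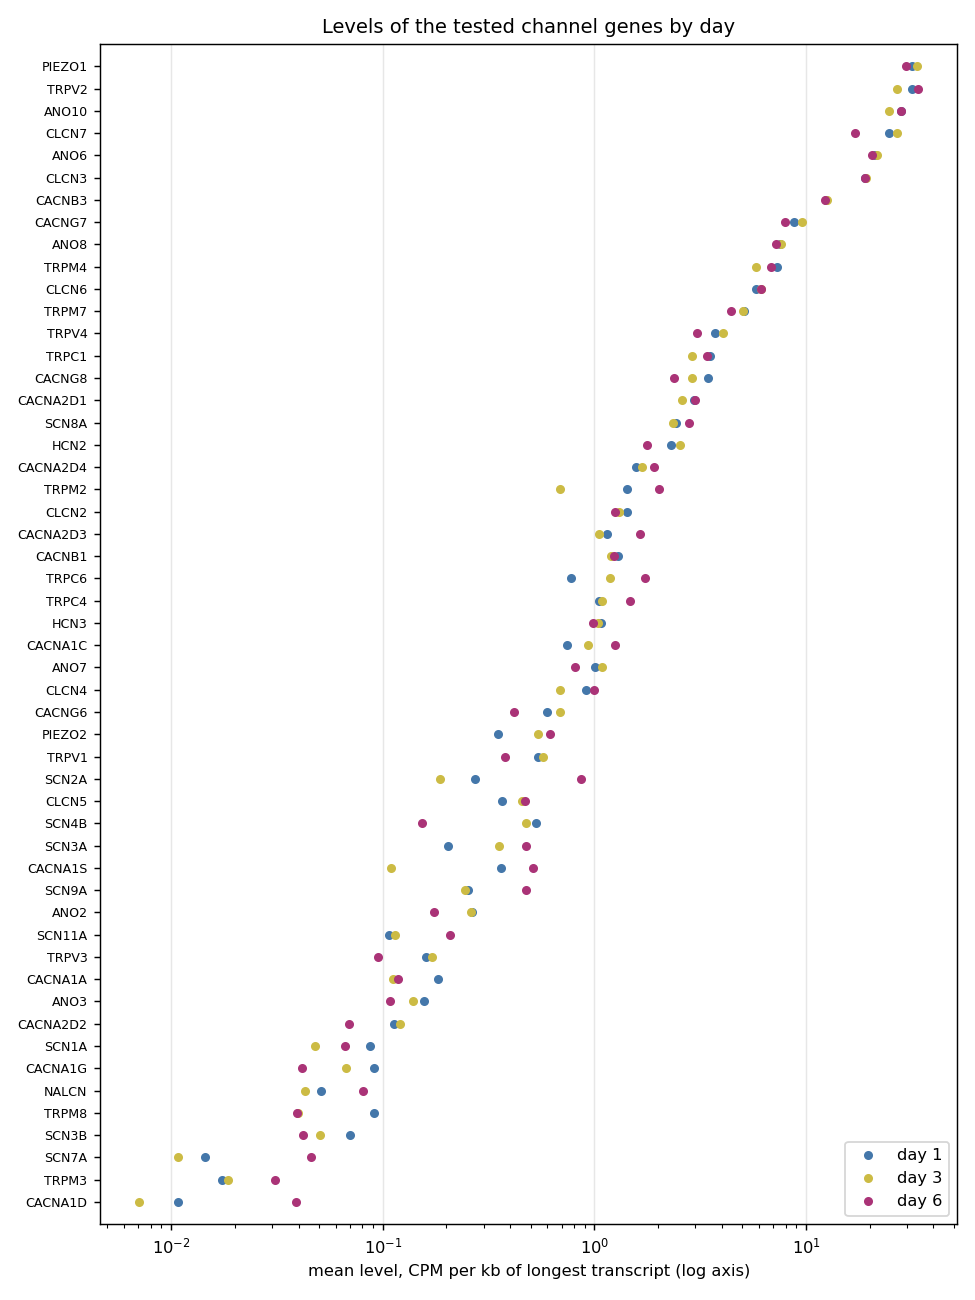
Mean level of the tested channel genes (1 row per gene, highest at the top) on days 1, 3 and 6, in CPM per kb of the longest transcript on a log axis. By the mean over all libraries, PIEZO1, TRPV2, ANO10, CLCN7 and ANO6 lie at the top, the calcium and sodium channel pores lie below 3 CPM per kb on every day, and the days lie far apart for TRPM2, SCN2A, SCN4B and CACNA1S.

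In the late step, 19 of the 55 tested genes rose (34.5%) and 15 fell (27.3%), beside 26.4% of all tested genes that rose and 23.4% that fell. Either way, 61.8% of the channel genes changed in the late step, against a background of 49.9%. In the early step, 4 rose (7.27%, background 6.88%) and 8 fell (14.5%, background 5.9%), or 21.8% in either direction beside 12.8% of all genes. Day 6 against day 1 showed 15 higher (27.3%, background 21.3%) and 13 lower (23.6%, background 18.7%), or 50.9% in either direction beside 39.9%. The late counts include CACNA1D and SCN7A and the early count TRPM8, and the counts of day 6 against day 1 include all of these. These genes had to differ. The median absolute log2 fold change was 0.40 among the channel genes and 0.29 among all tested genes in the late step, 0.15 and 0.16 in the early step, and 0.51 and 0.25 for day 6 against day 1. Scaling by library totals alone moved the late split to 25 higher and 8 lower, and the split of day 6 against day 1 to 17 higher and 7 lower. All tested genes moved with it: 43.2% were called higher and 12.3% lower in the late step under that scaling, beside 45.5% and 14.5% of the channel genes, and 32.7% and 11.2% on day 6 against day 1, beside 30.9% and 12.7%. The scaling shifts the median of all genes by 0.184 in the late step and 0.127 on day 6 against day 1, and with it the late falls of ANO7, CACNA2D2, CACNG6, CACNG7, CACNG8, PIEZO1 and TRPM7 were lost, as were the lower values of CACNA1A, HCN2, TRPM7, TRPV1, TRPV3 and TRPV4 on day 6 against day 1. The early count was the least stable: the number lower was 3 without day 1 replicate 1, and 4 without day 1 replicate 3, day 3 replicate 1 or day 3 replicate 3, while the number higher was 2 without any 1 of the day 1 libraries or without day 3 replicate 2. Without day 1 replicate 3, the number lower on day 6 against day 1 was 8.

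The early and late steps share the day 3 libraries, so their values are given side by side. CACNA1C, SCN3A and TRPC6 rose in both steps. CACNA1S, TRPM2, TRPM4, TRPV2, ANO10 and TRPC1 fell in the early step and rose in the late step. PIEZO2 rose, and CACNA1A and TRPM8 fell, in the early step with no call in the late step. On day 6 against day 1, the genes that were higher were CACNA1C, CACNA1D, CACNA2D3, CACNA2D4, SCN2A, SCN3A, SCN7A, SCN8A, SCN9A, SCN11A, TRPC4, TRPC6, TRPM2, PIEZO2 and CLCN5. Those that were lower included CACNA1A, CACNA1G, CACNG8, SCN4B, HCN2, TRPM7, TRPM8, TRPV1, TRPV3, TRPV4, CLCN7 and TRPC4AP. Among the genes named, CACNA1D, SCN7A and TRPM8 had to differ because of the filter. The difference between the steps was itself tested as the late log2 change minus the early one, and 17 genes passed (30.9%, background 35.2%). In 10 of these the late change was the higher (18.2%, background 17.5%): CACNA1S, SCN2A, TRPM2, SCN9A, CLCN4, CACNA2D3, TRPV2, TRPM4, TRPC1 and ANO10. In 7 it was the lower (12.7%, background 17.7%), among them SCN4B, CLCN7, HCN2, TRPV4, CACNG7 and TRPC4AP.

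**Figure D2:**
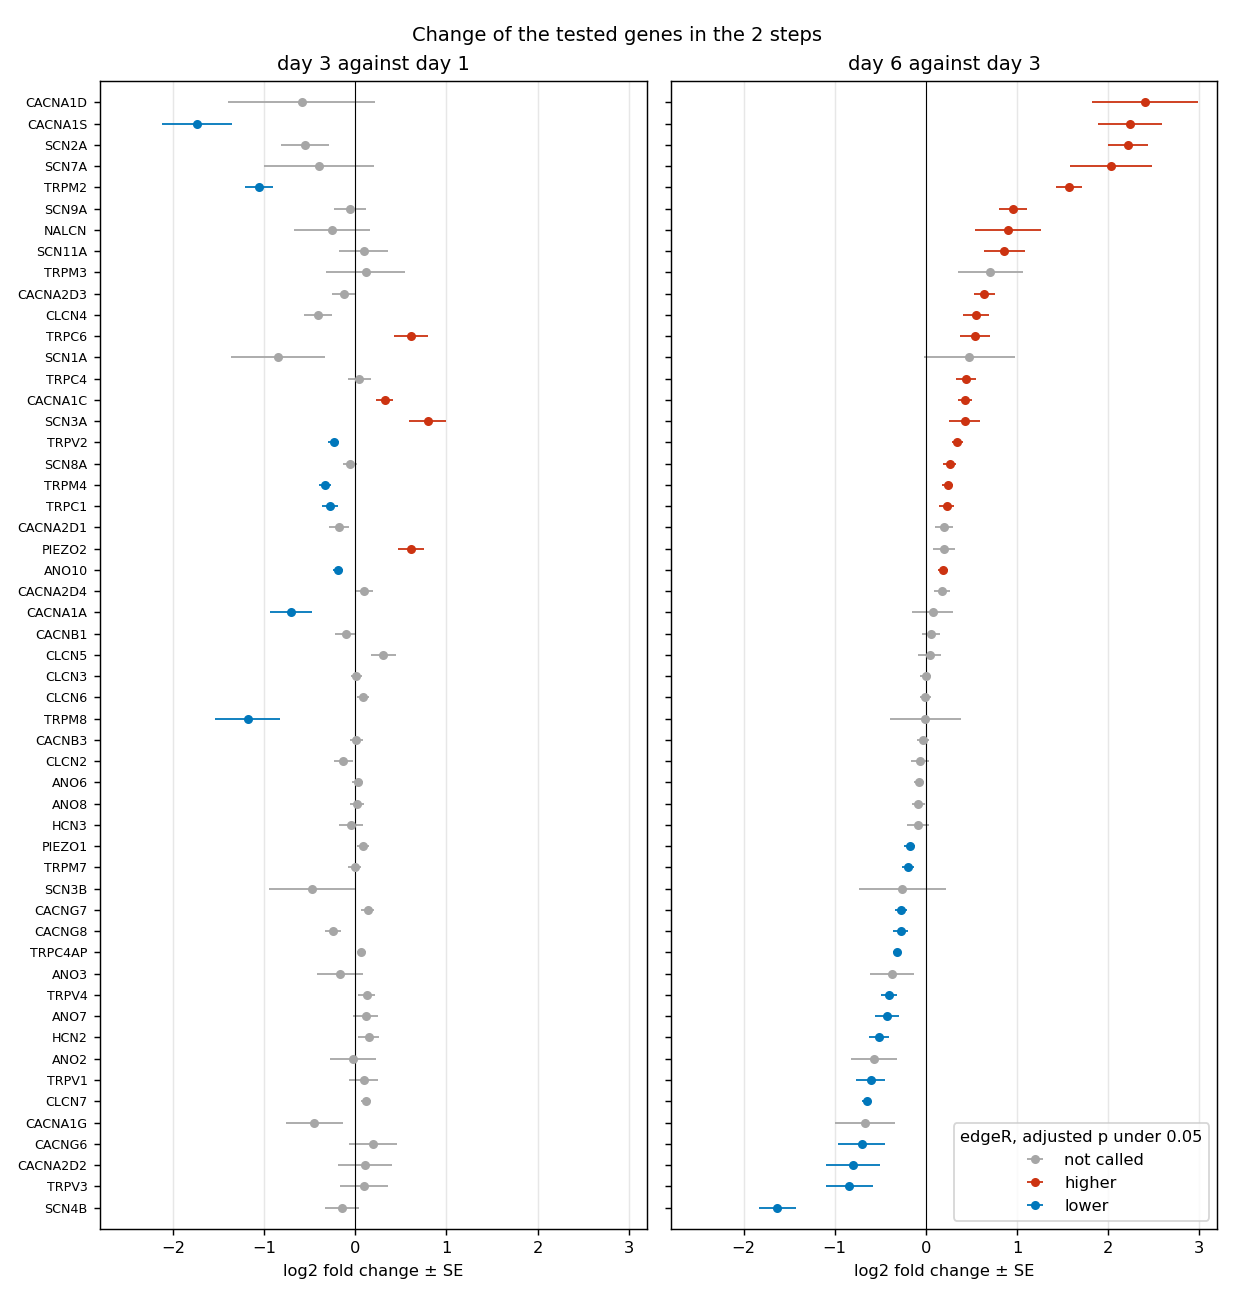
Log2 fold change with its SE for the tested genes (1 row per gene) on day 3 against day 1 (left panel) and day 6 against day 3 (right panel), ordered by the second, in red where higher, blue where lower and grey where not called by edgeR at an adjusted p under 0.05. CACNA1S at -1.74 and 2.24 and TRPM2 at -1.06 and 1.57 change sides between the panels, and SCN4B at -1.63 ends the right panel.

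Among the voltage-gated calcium channel pores, CACNA1C rose in both steps and CACNA1S fell in the early step and rose in the late one. CACNA1C encodes Cav1.2, the L-type pore of smooth and cardiac muscle, and lies on chromosome 12. It stood at 10.4, 10.1 and 9.38 CPM on day 1, at 11.9, 14.3, 12.4 and 11.2 CPM on day 3 and at 17.4, 16.9, 17.2 and 15.6 CPM on day 6. No library of one day overlapped those of another. CACNA1C was 1.68-fold higher on day 6 than on day 1 (log2 fold change 0.75, SE 0.0887, adjusted p = 2.41e-06, edgeR), with 0.32 in the early step (SE 0.0904, adjusted p = 0.0238) and 0.43 in the late step (SE 0.0805, adjusted p = 0.000197). The early call was lost without any 1 of day 1 replicates 2 and 3 and day 3 replicates 2 and 3, at adjusted p-values of 0.0515 to 0.103.

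CACNA1S, which encodes Cav1.1, the L-type pore and voltage sensor of skeletal muscle, was at 1.83, 1.99 and 2.89 CPM on day 1, at 0.620, 1.07, 0.562 and 0.442 CPM on day 3 and at 1.40, 3.50, 4.09 and 3.72 CPM on day 6. All day 3 libraries lay below those of the other days, and day 6 replicate 1 lay below the day 1 libraries while the other day 6 libraries lay above them. The log2 fold change was -1.74 in the early step (SE 0.385, adjusted p = 0.0104) and 2.24 in the late step (SE 0.351, adjusted p = 0.00013). Day 6 and day 1 did not differ by the test (0.51, SE 0.312, adjusted p = 0.221), although a difference was called without day 6 replicate 1. Of 6 skeletal or cardiac muscle marker genes, 2 were testable, none rose in the late step and 1 fell, and their summed level was 0.830 to 1.18 CPM on day 1, 0.984 to 1.53 CPM on day 3 and 0.813 to 1.08 CPM on day 6. The part of other muscle cell types in the CACNA1S values was not tested. CACNA1C made up 51.8%, 73.9% and 63.0% of the summed Cav pore level per kb on days 1, 3 and 6, and CACNA1S 25.1%, 8.43% and 25.3%.

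The remaining calcium channel pores were scarce. CACNA1A, the P/Q-type pore of nerve terminals, was at 1.46, 1.53 and 1.75 CPM on day 1, at 0.914, 1.42, 0.668 and 0.884 CPM on day 3 and at 0.986, 1.03, 0.849 and 1.21 CPM on day 6. Every library of the later days lay below those of day 1. It fell in the early step (-0.71, SE 0.228, adjusted p = 0.0469) and was lower on day 6 than on day 1 (-0.63, SE 0.222, adjusted p = 0.0294). The early call was lost without any 1 of 7 libraries, namely each day 1 library, day 3 replicates 1, 3 and 4 and day 6 replicate 2 (adjusted p from 0.0525 to 0.154), and the day 6 call without day 1 replicate 3, day 6 replicate 1 or day 6 replicate 3 (0.0524 to 0.118). With DESeq2, or with edgeR under a replicate block, a column letter block or no filter, the early call was lost too (adjusted p from 0.0524 to 0.118). CACNA1D, the L-type pore Cav1.3, stayed within 0 to 0.394 CPM and rose in the late step (2.41, SE 0.586, adjusted p = 0.00207). It had passed the filter only through day 6, so its calls on day 6 against either earlier day are no test of a difference. Its span on the genome overlaps DCP1A, a gene with up to 1233 counts, and the strand setting of the counting is not given in the sources used here, so its few counts are uncertain. Day 6 over day 1 was 1.82 (SE 0.572, adjusted p = 0.0163), a call lost without day 1 replicate 3 (adjusted p = 0.0897). CACNA1G, the T-type pore Cav3.1, ranged from 0.201 to 0.962 CPM and was lower on day 6 than on day 1 (-1.12, SE 0.332, adjusted p = 0.0114), a call lost without day 1 replicate 1 (adjusted p = 0.0882).

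Among the auxiliary calcium channel subunits, alpha2delta genes were higher or did not pass the test, with 1 exception, and gamma genes were lower. Alpha2delta subunits are extracellular proteins that carry the pore to the membrane, and CACNA2D1, the most abundant here at 16.9 to 25.4 CPM, passed no comparison. CACNA2D3 was at 3.63, 4.88 and 4.16 CPM on day 1, at 3.43, 4.14, 3.87 and 4.05 CPM on day 3 and at 6.74, 5.88, 6.15 and 5.37 CPM on day 6. Its day 6 libraries lay above all others, and it rose in the late step (0.64, SE 0.119, adjusted p = 0.000179). CACNA2D4 was at 9.30, 10.7 and 8.14 CPM on day 1, at 9.76, 10.2, 10.7 and 9.46 CPM on day 3 and at 11.1, 12.5, 10.9 and 10.7 CPM on day 6. It was higher on day 6 than on day 1 (0.27, SE 0.098, adjusted p = 0.0332), and that call was lost without day 1 replicate 1, day 1 replicate 3 or day 6 replicate 2 (adjusted p from 0.0922 to 0.214). CACNA2D2, within 0.254 to 0.914 CPM, was the exception and fell in the late step (-0.80, SE 0.298, adjusted p = 0.0316), a call lost without any 1 of 4 libraries of days 3 and 6, namely replicates 1 and 3 of day 3 and replicates 1 and 4 of day 6 (0.0559 to 0.129).

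The intracellular beta subunits, which bind the pore and set its gating, did not pass in any comparison. CACNB3 ranged from 45.0 to 57.0 CPM and CACNB1 from 5.70 to 7.55 CPM over the 11 libraries. All 3 tested gamma subunits, CACNG6, CACNG7 and CACNG8, fell in the late step, in which 23.4% of all tested genes fell. Each of these late calls was lost when libraries were scaled by their totals alone (adjusted p = 0.309 for CACNG7 and 0.354 for CACNG8, edgeR). CACNG7 and CACNG8 are better known as auxiliary subunits of AMPA receptors than of calcium channels, and the 3 genes lie side by side within 0.103 Mb of chromosome 19. CACNG7 was at 23.4, 24.5 and 22.9 CPM on day 1, at 27.0, 26.1, 26.0 and 24.3 CPM on day 3 and at 21.8, 19, 21.8 and 23.0 CPM on day 6. The day 6 libraries lay below those of day 3 and overlapped those of day 1 (late log2 fold change -0.27, SE 0.0672, adjusted p = 0.00232). CACNG8 was at 31.3, 25.9 and 32.6 CPM on day 1, at 27.2, 24.2, 26.3 and 23.5 CPM on day 3 and at 23.5, 18.2, 20.8 and 21.1 CPM on day 6. All day 6 libraries lay below the day 1 libraries (day 6 over day 1 -0.52, SE 0.0898, adjusted p = 0.000137). CACNG6 was at 0.993, 1.16 and 1.18 CPM on day 1, at 0.979, 0.921, 1.16 and 2.03 CPM on day 3 and at 0.890, 0.969, 0.606 and 0.637 CPM on day 6. Its late fall (-0.70, SE 0.258, adjusted p = 0.029) was lost without day 3 replicate 4, its highest library, and without day 6 replicates 3 or 4 (adjusted p from 0.071 to 0.185).

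The sodium channel pore genes SCN2A, SCN3A, SCN8A, SCN9A and SCN11A rose in the late step, a step in which 26.4% of all tested genes rose, and the beta subunit gene SCN4B fell. SCN7A was called higher too, but it had passed the filter only through day 6, and SCN1A, the remaining tested pore, was not called. The pores open on depolarisation and carry the fast inward sodium current, and the beta subunits are single-pass proteins that tune gating and adhesion. SCN2A, the neuronal pore Nav1.2, was at 3.72, 3.09 and 2.73 CPM on day 1, at 1.47, 2.23, 2.496 and 2.54 CPM on day 3 and at 10.1, 9.69, 13.8 and 6.64 CPM on day 6. All day 6 libraries lay above, and all day 3 libraries below, those of day 1. SCN2A was 4.65-fold higher on day 6 than on day 3 (log2 fold change 2.22, SE 0.221, adjusted p = 1.87e-06) and 3.17-fold higher than on day 1 (1.67, SE 0.228, adjusted p = 5.95e-05). The early decrease did not pass (-0.55, SE 0.261, adjusted p = 0.196).

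SCN9A, the pore Nav1.7 of sensory neurons, was at 3.10, 2.49 and 1.84 CPM on day 1, at 2.25, 2.26, 2.64 and 2.39 CPM on day 3 and at 4.87, 4.75, 5.12 and 3.76 CPM on day 6. Its day 6 libraries lay above all others, and it was 1.94-fold higher on day 6 than on day 3 (0.95, SE 0.152, adjusted p = 3.8e-05). SCN3A, the pore Nav1.3 of the developing nervous system, was at 1.40, 2.32 and 1.88 CPM on day 1, at 3.49, 2.80, 3.69 and 2.87 CPM on day 3 and at 5.41, 4.28, 4.55 and 3.05 CPM on day 6. Day 3 lay above day 1 in every library, and day 6 overlapped day 3. SCN3A was 2.33-fold higher on day 6 than on day 1 (1.22, SE 0.198, adjusted p = 7.71e-05), with 0.79 in the early step (SE 0.204, adjusted p = 0.015) and 0.43 in the late step (SE 0.171, adjusted p = 0.0452). The early call was lost without day 1 replicate 1 (adjusted p = 0.0984), and the late call without day 1 replicate 3 or any 1 of day 3 replicates 1, 2 and 4 and day 6 replicates 1, 2 and 3 (0.0551 to 0.157). The late call was also lost with DESeq2, with limma-voom, and with edgeR under RLE scaling or a column letter block (adjusted p from 0.0524 to 0.267).

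SCN8A, which encodes Nav1.6, was the most abundant sodium channel pore per kb. It was at 29, 28.6 and 26.9 CPM on day 1, at 27.7, 28.04, 25.6 and 26.9 CPM on day 3 and at 30.2, 35.3, 28.5 and 35.6 CPM on day 6. Every day 6 library lay above every day 3 library, with a late log2 fold change of 0.26 (SE 0.0719, adjusted p = 0.00548). The difference between day 6 and day 1 (0.20, SE 0.0773, adjusted p = 0.0451) was lost in 16 of 20 alternatives, 9 of which left out 1 library (adjusted p from 0.0505 to 0.179): replicates 2 and 4 of day 6, all of day 3 and all of day 1. SCN8A made up 72.0%, 70.4% and 56.8% of the summed sodium channel pore level per kb on days 1, 3 and 6, and SCN2A 8.03%, 5.63% and 17.3%. SCN11A, Nav1.9, was at 0.558, 1.03 and 0.508 CPM on day 1, at 0.653, 0.844, 0.808 and 0.663 CPM on day 3 and at 1.46, 1.31, 1.27 and 1.34 CPM on day 6, with no overlap of day 6 with either earlier day. It rose in the late step (0.86, SE 0.223, adjusted p = 0.00342), but it overlaps WDR48, which has up to 1054 counts, and is uncertain for that reason. SCN7A, the sodium-sensing channel Nax, stayed within 0.0620 to 0.382 CPM and rose in the late step (2.03, SE 0.45, adjusted p = 0.000938). Day 6 over day 1 was 1.64 (SE 0.452, adjusted p = 0.00716), a call lost without day 1 replicate 1 or 3 (adjusted p from 0.0508 to 0.0517). As SCN7A had passed the filter only through day 6, these calls are no test of a difference.

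SCN1A, the pore Nav1.1, ranged from 0.403 to 1.97 CPM and passed no comparison. SCN1A, SCN2A, SCN3A, SCN7A and SCN9A are the 5 sodium channel genes in 1.52 Mb of chromosome 2. They lie from 165087526 to 166611482 in the GRCh38 coordinates given with the counts. SCN2A and SCN3A overlap there by 9058 bases on opposite strands, so that reads from the shared stretch cannot be told apart without strand. The genes are also paralogs, and reads that fit more than 1 of them could have been split in the counting.

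**Figure D3:**
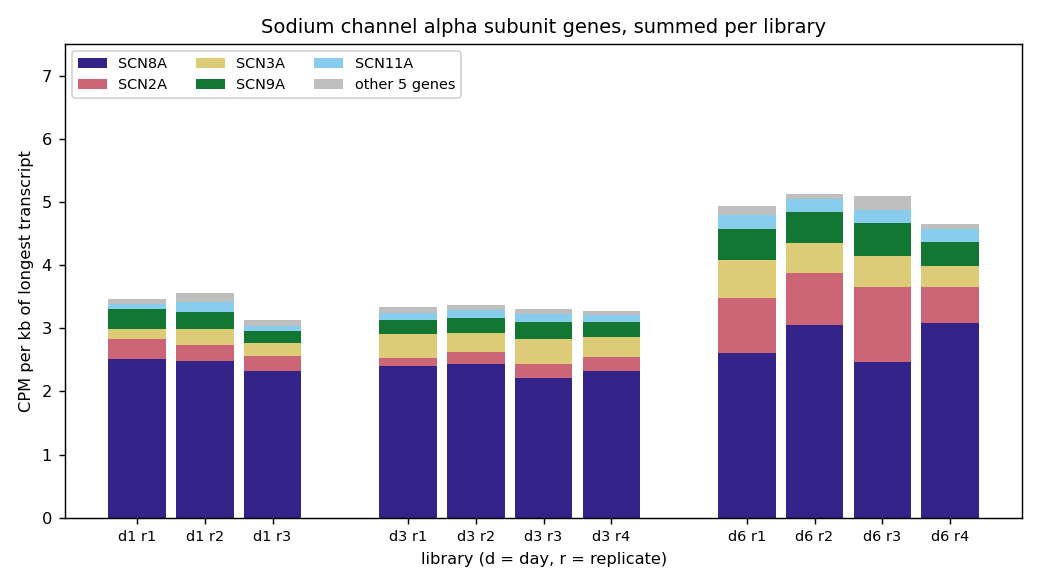
Stacked bars of the 10 voltage-gated sodium channel pore genes in each library, in CPM per kb of the longest transcript, with 5 genes coloured and the other 5 summed in grey. The total averages 3.39, 3.32 and 4.95 CPM per kb on days 1, 3 and 6, and the SCN2A segment is taller in every day 6 library than in any other library.

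SCN4B, beta4, which gives some neurons a resurgent sodium current, was at 2.60, 2.19 and 2.32 CPM on day 1, at 2.15, 2.23, 2.64 and 1.55 CPM on day 3 and at 0.540, 0.656, 0.818 and 0.738 CPM on day 6. No day 6 library reached the lowest of the earlier days, and the late log2 fold change was -1.63 (SE 0.202, adjusted p = 2.03e-06), with -1.78 on day 6 against day 1 (SE 0.209, adjusted p = 2.3e-06). SCN3B ranged from 0.156 to 0.763 CPM and passed no comparison.

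Neuronal marker genes were measured beside the sodium channels. Of 8 such genes, 6 were tested, and in the late step 4 rose (NEFL, SYT1, SYP and MAP2) and 1 fell (RBFOX3), beside 26.4% of all tested genes that rose and 23.4% that fell. Their median late log2 fold change was 0.73, beside 0.03 for all tested genes. Their summed level was 29.91 to 33.06 CPM on day 1, 26.33 to 28 CPM on day 3 and 39.25 to 46.87 CPM on day 6. None of the 8 was at 0 in every library. ELAVL4, which encodes an RNA-binding protein of neurons, had at most 3 counts in a library, and STMN2, an axonal protein, at most 10. RBFOX3, the nuclear antigen NeuN, averaged 0.809 ± 0.0587 CPM in day 6 libraries, against 1.74 ± 0.133 CPM in day 3 libraries (SD, n = 4 each). The part of these markers in the sodium channel values was not tested.

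NALCN and HCN channels carry depolarising currents at rest. NALCN, the sodium leak channel, stayed within 0.196 to 0.719 CPM and rose in the late step (0.90, SE 0.362, adjusted p = 0.0453). That call was lost without any 1 of 9 libraries, which were all but day 3 replicate 2 and day 6 replicate 1 (adjusted p from 0.0507 to 0.136). It was also lost with DESeq2, with limma-voom, and with edgeR under no filter or on only the days compared (adjusted p from 0.0539 to 0.102). HCN2, a cyclic nucleotide-gated pacemaker channel, was at 7.20, 7.93 and 8.39 CPM on day 1, at 9.07, 8.52, 8.54 and 8.54 CPM on day 3 and at 6.49, 6.57, 4.61 and 6.61 CPM on day 6. The day 6 libraries lay below all others, and HCN2 fell in the late step (-0.52, SE 0.11, adjusted p = 0.000656). On day 6 against day 1 it was also lower (-0.37, SE 0.118, adjusted p = 0.0172), a call lost without day 1 replicate 3 (adjusted p = 0.0833). HCN3 ranged from 3.21 to 4.39 CPM and passed no comparison; it overlaps the more abundant gene CLK2.

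The TRPC channel genes TRPC1, TRPC4 and TRPC6 rose in the late step. TRPC channels are opened downstream of receptors that activate phospholipase C, and TRPC6 responds directly to diacylglycerol. TRPC6 was at 3.57, 4.02 and 3.18 CPM on day 1, at 4.96, 6.21, 5.48 and 5.30 CPM on day 3 and at 8.08, 7.38, 5.52 and 11 CPM on day 6. Both later days lay above day 1 in every library, and day 6 overlapped day 3 through its replicate 3. TRPC6 was 2.22-fold higher on day 6 than on day 1 (1.15, SE 0.184, adjusted p = 0.00011), with 0.54 in the late step (SE 0.162, adjusted p = 0.011). The early rise of 0.61 (SE 0.19, adjusted p = 0.0438) was lost without any 1 of 9 libraries, all but day 6 replicates 3 and 4 (adjusted p from 0.0525 to 0.154). With limma-voom the early call was lost too (adjusted p = 0.0747).

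TRPC4, a receptor-operated partner of TRPC1, was at 4.28, 4.65 and 3.85 CPM on day 1, at 4.28, 4.22, 3.90 and 5.16 CPM on day 3 and at 6.14, 5.94, 5.39 and 6.34 CPM on day 6. Its day 6 libraries lay above all others, and it rose in the late step (0.44, SE 0.113, adjusted p = 0.00321). TRPC1, which forms mixed channels with TRPC4 and TRPC5, was at 15.1, 14.4 and 15.9 CPM on day 1, at 12.1, 11.1, 13.7 and 13.2 CPM on day 3 and at 14.1, 13.9, 16.2 and 14.5 CPM on day 6. Day 3 lay below both other days, which overlapped each other. Its early fall (-0.28, SE 0.0879, adjusted p = 0.0448) was lost without any 1 of the day 1 libraries or day 3 replicates 1, 2 and 4 (0.0569 to 0.163), and its late rise (0.23, SE 0.0819, adjusted p = 0.0257) without day 3 replicates 1 or 2 or day 6 replicate 3 (0.0677 to 0.0925). TRPC4AP, which is no channel, was at 153.0, 153.8 and 159.1 CPM on day 1, at 161.8, 164.8, 165.8 and 157.9 CPM on day 3 and at 129.6, 126.1, 130.9 and 135.5 CPM on day 6, and fell in the late step (-0.32, SE 0.0461, adjusted p = 1.36e-05).

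Among the TRPM channels, TRPM2 and TRPM4 fell in the early step and rose in the late one. TRPM2, a calcium-permeable channel opened by ADP-ribose and oxidative stress, was at 8.03, 9.46 and 9.06 CPM on day 1, at 4.11, 4.45, 3.97 and 4.49 CPM on day 3 and at 9.32, 13.8, 16.2 and 11.1 CPM on day 6. Day 3 lay below both other days in every library, and day 6 overlapped day 1 through day 6 replicate 1 and day 1 replicate 2. The log2 fold change was -1.06 in the early step (SE 0.157, adjusted p = 0.000359) and 1.57 in the late step (SE 0.144, adjusted p = 1.38e-07). Day 6 over day 1 was 0.51 (SE 0.144, adjusted p = 0.00897), a call lost without day 1 replicate 1 (adjusted p = 0.052).

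TRPM4, a calcium-activated channel that conducts sodium and depolarises the membrane, was at 30.1, 30.7 and 29.1 CPM on day 1, at 25.0, 23.8, 23.3 and 23.2 CPM on day 3 and at 30.4, 27.6, 27.8 and 27.0 CPM on day 6. Day 3 again lay below both other days. The changes were -0.33 in the early step (SE 0.0636, adjusted p = 0.00215) and 0.24 in the late step (SE 0.0594, adjusted p = 0.00225). TRPM7, a magnesium and calcium channel with a kinase domain, was at 51.0, 54.0 and 53.5 CPM on day 1, at 52.3, 45.2, 56.5 and 56.7 CPM on day 3 and at 46.5, 45.6, 48.7 and 43.5 CPM on day 6. It fell in the late step (-0.19, SE 0.0653, adjusted p = 0.0194) and was lower on day 6 than on day 1 (-0.20, SE 0.0701, adjusted p = 0.031). The late call was lost without day 3 replicates 3 or 4 or day 6 replicate 4 (0.0603 to 0.0778), and the other without day 1 replicates 2 or 3 or day 6 replicates 2 or 4 (0.0581 to 0.0903). TRPM8, the cold and menthol receptor, stayed within 0.153 to 0.651 CPM and fell in the early step (-1.18, SE 0.357, adjusted p = 0.035), a call lost without day 1 replicates 1 or 3 or day 3 replicates 1, 2 or 3 (0.063 to 0.185). On day 6 against day 1 it was also lower (-1.19, SE 0.349, adjusted p = 0.0107), a call lost without day 1 replicate 1 (adjusted p = 0.0819). TRPM8 had passed the filter only through day 1, so its calls against day 1 are no test of a difference. TRPM3 ranged from 0.141 to 0.509 CPM and passed no comparison.

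Among the TRPV channels, TRPV2 fell and then rose, and the other 3 tested members fell in the late step, in which 23.4% of all tested genes fell. TRPV2, a calcium-permeable channel sensitive to stretch, was at 90.6, 91.5 and 83.6 CPM on day 1, at 74.5, 80.1, 70.8 and 75.3 CPM on day 3 and at 94.7, 95.7, 103.5 and 88.02 CPM on day 6. Day 3 lay below both other days in every library. The late rise was 0.34 (SE 0.0569, adjusted p = 5.41e-05), and the early fall of -0.24 (SE 0.0613, adjusted p = 0.0152) was lost without day 1 replicates 1 or 2 or day 3 replicate 3 (0.0576 to 0.0762). TRPV4, opened by cell swelling and arachidonic acid metabolites, was at 12.6, 12.3 and 11.2 CPM on day 1, at 13.7, 14.9, 11.9 and 12.0 CPM on day 3 and at 10.7, 9.97, 9.34 and 9.79 CPM on day 6. Its day 6 libraries lay below all others (late log2 fold change -0.40, SE 0.0868, adjusted p = 0.000748). TRPV1, the capsaicin receptor, was at 2.08, 2.52 and 3.05 CPM on day 1, at 2.71, 2.57, 2.95 and 2.62 CPM on day 3 and at 1.65, 1.47, 2.09 and 1.91 CPM on day 6. Day 6 lay below day 3 without overlap (-0.61, SE 0.159, adjusted p = 0.00366), although TRPV1 overlaps SHPK on the same strand and is uncertain. TRPV3, a warmth-sensitive channel of skin, stayed within 0.313 to 1.23 CPM and fell in the late step (-0.84, SE 0.26, adjusted p = 0.0114). On day 6 against day 1, TRPV1 (-0.52, adjusted p = 0.0209), TRPV3 (-0.74, adjusted p = 0.0387) and TRPV4 (-0.28, adjusted p = 0.0236) were lower as well, and leaving out 1 library ended each of these calls. For TRPV1 that library was day 1 replicate 3 or day 6 replicate 2 (0.0626 to 0.15), for TRPV3 day 1 replicates 2 or 3 or day 6 replicate 2 (0.0675 to 0.151), and for TRPV4 day 1 replicates 1 or 2 or day 6 replicate 3 (0.0505 to 0.0977).

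PIEZO2 rose in the early step, and PIEZO1 fell in the late step. PIEZO2, the stretch-gated channel of touch and proprioception, was at 3.29, 3.29 and 3.69 CPM on day 1, at 5.42, 5.75, 4.39 and 5.41 CPM on day 3 and at 7.22, 6.38, 5.06 and 5.43 CPM on day 6. Both later days lay above day 1 in every library and overlapped each other. PIEZO2 rose in the early step (0.61, SE 0.142, adjusted p = 0.00763) and was 1.76-fold higher on day 6 than on day 1 (0.81, SE 0.14, adjusted p = 0.000128). PIEZO1, the stretch-gated channel of vessels and red cells, was at 266.0, 251.3 and 250 CPM on day 1, at 282.8, 289.2, 262.4 and 252.0 CPM on day 3 and at 248.0, 230.4, 220.9 and 260.2 CPM on day 6, with overlap between all days. Its late fall (-0.18, SE 0.0604, adjusted p = 0.019) was lost without day 3 replicates 1 or 2 or day 6 replicates 2 or 3 (0.0549 to 0.0678), and it turned to 0.004 when libraries were scaled by their totals alone. The difference between PIEZO1 and PIEZO2 was not tested.

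**Figure D4:**
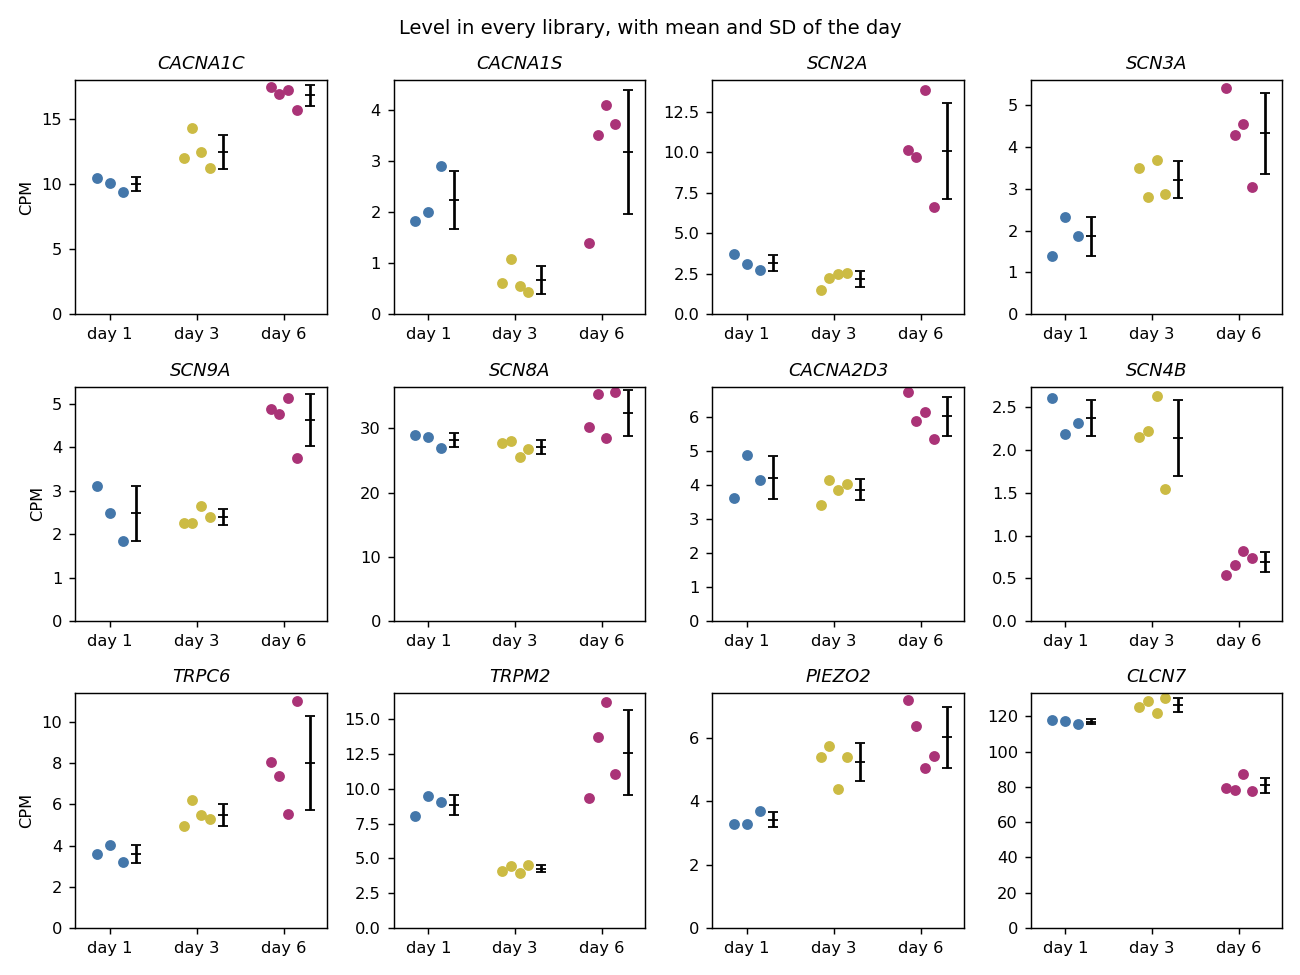
Level of 12 channel genes in each library, in CPM by day, with 1 point per library and the mean ± SD of each day beside the points. CACNA1C does not overlap between days, TRPM2 and CACNA1S are lowest on day 3, CACNA2D3 is highest on day 6, and CLCN7 and SCN4B are lowest on day 6.

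The chloride channel families were led by intracellular members. CLCN7 encodes the chloride-proton exchanger of lysosomes. It was at 118.1, 117.5 and 115.5 CPM on day 1, at 125.5, 128.7, 121.7 and 130.4 CPM on day 3 and at 79.4, 78.4, 87.5 and 77.9 CPM on day 6. Its day 6 libraries lay below all others, and it fell in the late step (-0.65, SE 0.05, adjusted p = 6.67e-09) and on day 6 against day 1 (-0.53, SE 0.0534, adjusted p = 3.84e-07). OSTM1, the accessory subunit that CLCN7 needs in lysosomes, averaged 75.2 ± 1.23 CPM in day 6 libraries, against 92.9 ± 4.22 CPM in day 3 libraries (SD, n = 4 each; late log2 fold change -0.30, SE 0.0488, adjusted p = 4.05e-05).

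CLCN4, an endosomal exchanger, was at 6.05, 6.44 and 5.91 CPM on day 1, at 3.69, 5.22, 5.06 and 4.57 CPM on day 3 and at 6.93, 5.75, 8.85 and 5.50 CPM on day 6. Day 3 lay below both other days, and CLCN4 rose in the late step (0.55, SE 0.144, adjusted p = 0.00366). CLCN5, the endosomal exchanger of kidney tubules, was at 3.85, 3.65 and 3.65 CPM on day 1, at 4.41, 5.25, 4.43 and 4.35 CPM on day 3 and at 5.56, 3.72, 5.001 and 4.66 CPM on day 6. It was higher on day 6 than on day 1 (0.35, SE 0.137, adjusted p = 0.0495), a call lost under 16 of 20 alternatives. Of these, 9 left out 1 library, which was any but day 3 replicate 2 and day 6 replicate 2 (adjusted p from 0.0584 to 0.147). CLCN2, CLCN3 and CLCN6 passed no comparison, at 5.47 to 6.92, 113.6 to 136.5 and 30.5 to 38.0 CPM.

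Among the anoctamins, ANO10 dipped on day 3 and ANO7 fell in the late step. ANO10, an intracellular anoctamin, was at 91.7, 88.8 and 90.1 CPM on day 1, at 75.8, 84.2, 75.3 and 80.3 CPM on day 3 and at 85.8, 91.7, 88.4 and 93.8 CPM on day 6. Day 3 lay below both other days without overlap (late log2 fold change 0.19, SE 0.0507, adjusted p = 0.00425). The early fall (-0.19, SE 0.0545, adjusted p = 0.0239) was lost without day 1 replicates 1 or 3 or day 3 replicates 1 or 3 (adjusted p from 0.0659 to 0.103). ANO7, best known from the prostate, was at 3.94, 4.18 and 4.39 CPM on day 1, at 4.80, 4.11, 4.82 and 4.27 CPM on day 3 and at 3.91, 3.00, 3.79 and 2.68 CPM on day 6, with day 6 below both other days (-0.43 in the late step, SE 0.131, adjusted p = 0.0112). ANO6 at 113.9 to 133.2 CPM, ANO8 at 31.2 to 38.4 CPM, ANO2 at 0.445 to 1.20 CPM and ANO3 at 0.606 to 1.25 CPM passed no comparison.

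The strand used in counting bears on many of these genes. Of the 55 tested genes, 51 overlap another gene of the table on the genome, and 22 overlap one that had 10 or more counts in a library. These include CACNA1C, whose span overlaps DCP1B, ANO8 with DDA1 and CLCN2 with FAM131A. The share of their counts that belongs to the neighbour cannot be told apart here.

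Partner genes changed in both directions as well, and shares of all tested genes stand beside the counts below. Of 5 tested regulators of calcium channel trafficking, the adaptor STAC rose in the late step (1.27, SE 0.189, adjusted p = 1.77e-05), and GEM (-0.57, adjusted p = 1.5e-05) and STAC3 (-0.89, adjusted p = 0.00348) fell, beside 26.4% of all genes that rose and 23.4% that fell. RRAD, like GEM a small GTPase that inhibits calcium channels, was lower on day 6 than on day 1 (-1.30, SE 0.234, adjusted p = 0.00202), with a mean of 32.5 ± 10.6 CPM in day 6 libraries (SD, n = 4), against 80.1 ± 12.7 CPM in day 1 libraries (SD, n = 3). Another list held partners of sodium channels and NALCN together with epithelial sodium channel subunits. Of its 4 tested genes, 2 rose in the late step (50%, beside 26.4% of all genes). They were FGF12 (0.84, adjusted p = 5.03e-05), an intracellular modulator of sodium channel gating, and the epithelial sodium channel subunit SCNN1D (0.37, adjusted p = 0.0124). UNC79, a subunit of the NALCN complex, fell (-0.69, adjusted p = 0.0153), or 25% of this list beside 23.4% of all genes. FGF12 was also higher on day 6 than on day 1 (0.66, adjusted p = 0.00126), as was STAC (0.91, adjusted p = 0.000983), and GEM was lower (-0.43, adjusted p = 0.000646).

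A further list held other TRP families, PIEZO partners and TMC genes. Of its 11 tested genes, 2 rose in the early step (18.2%, beside 6.88% of all genes) and 4 fell in the late step (36.4%, beside 23.4%). TRPA1, a channel opened by irritants, did both: it was at 21.6 ± 2.88 CPM on day 1 (SD, n = 3), 40.9 ± 5.18 CPM on day 3 and 12.7 ± 1.84 CPM on day 6 (SD, n = 4 each), with 0.92 in the early step (SE 0.119, adjusted p = 0.000204) and -1.69 in the late step (SE 0.113, adjusted p = 1.79e-08). PKD1, polycystin-1, also rose in the early step (0.31, adjusted p = 0.00263). TMC1, a component of the hair cell mechanotransduction channel, fell in the late step (-1.87, SE 0.155, adjusted p = 2e-08). MDFI, a protein that binds PIEZO channels, was higher on day 6 than on day 1 (1.62, SE 0.408, adjusted p = 0.00361), or 9.09% of the list beside 21.3% of all genes. It was scarce, at 3 to 27 counts in a library and means of 0.193 CPM on day 1 and 0.597 CPM on day 6. In the same comparison 5 genes of the list were lower (45.5%, beside 18.7%), led by TMC1 (-1.75, adjusted p = 2.23e-07) and TRPA1 (-0.76, adjusted p = 0.000161). Of 16 tested genes of other chloride channels, 4 rose (25%, beside 26.4% of all genes) and 7 fell (43.8%, beside 23.4%) in the late step, so that the share that rose lay near that of all genes. BEST1, a calcium-activated chloride channel, rose (1.27, adjusted p = 5.32e-05), as did LRRC8B (1.09, adjusted p = 0.00131), whereas LRRC8A (-0.49, adjusted p = 1.43e-07) and LRRC8D (-0.44, adjusted p = 1.1e-05), subunits of the volume-regulated anion channel, fell. CLCA2, a regulator of chloride channels, was the 1 gene of this list that fell in the early step (-1.15, adjusted p = 0.00728). That share of 6.25% lay near the 5.9% of all genes. On day 6 against day 1, BEST1 was the 1 gene of the list that was higher (0.81, adjusted p = 0.00428), or 6.25% beside 21.3% of all genes. A further 7 were lower (43.8%, beside 18.7%), led by LRRC8A (-0.36, adjusted p = 2.36e-05) and TTYH3 (-0.39, adjusted p = 0.000159).

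Of 19 tested genes of calcium stores and extrusion, 4 rose (21.1%, beside 6.88% of all genes) and 1 fell (5.26%, beside 5.9%) in the early step. In the late step 5 rose (26.3%, beside 26.4%) and 8 fell (42.1%, beside 23.4%), and on day 6 against day 1, 4 were higher (21.1%, beside 21.3%) and 6 lower (31.6%, beside 18.7%). The shares that rose in the late step and were higher on day 6 than on day 1 thus lay near those of all genes. SLC8A1, the sodium-calcium exchanger NCX1, averaged 15.9 ± 1.81 CPM in day 6 libraries, against 6.76 ± 1.14 CPM in day 3 libraries (SD, n = 4 each; late log2 fold change 1.23, SE 0.126, adjusted p = 3.28e-07). ATP2B1, a plasma membrane calcium pump, averaged 323.0 ± 43.0 CPM in day 6 libraries, against 542.2 ± 23.5 CPM in day 3 libraries (SD, n = 4 each; -0.75, SE 0.0768, adjusted p = 2.79e-07). ITPR3, an IP3 receptor, fell (-0.58, adjusted p = 7.62e-08), and ATP2B4, another plasma membrane pump, rose (0.34, adjusted p = 7.53e-05). In the early step, the IP3 receptor ITPR2 (0.47, adjusted p = 0.00242) and ATP2B1 (0.31, adjusted p = 0.0191) rose, and ATP2B4 fell (-0.23, adjusted p = 0.0187). On day 6 against day 1, SLC8A1 (1.39, adjusted p = 5.34e-07) and ITPR2 (0.83, adjusted p = 1.17e-06) were higher, and ITPR3 (-0.59, adjusted p = 3.65e-07) and the store-operated channel subunit ORAI1 (-0.51, adjusted p = 1.1e-05) were lower.

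The identity of the tissue was checked with marker lists. Of 8 smooth muscle genes, 7 were tested and all 7 rose in the late step, in which 26.4% of all tested genes rose, with a summed level of 693.6 to 900.3 CPM on day 1, 763.7 to 834.3 CPM on day 3 and 1607 to 1796 CPM on day 6. TAGLN and CALD1, at means of 714 and 621.3 CPM on day 6, carried most of that sum. MYH11, the smooth muscle myosin, had only 19 to 57 counts. Its late rise was 0.52 (SE 0.211, adjusted p = 0.0459), and day 6 did not differ from day 1 (0.44, adjusted p = 0.126). The other tested genes of this list were higher on day 6 than on day 1. DES, desmin, did not exceed 2 counts. Of 6 immune genes, 5 were untested, with PTPRC at no more than 1 count, and CD14 had 98 to 332 counts. Their summed level was 7.40 to 11.09 CPM on day 1, 4.80 to 6.83 CPM on day 3 and 3.43 to 9.70 CPM on day 6. Of 6 epithelial genes, 4 were untested, with EPCAM at no more than 2 counts, and the summed level was 6.67 to 8.01 CPM on day 1, 7.14 to 9.63 CPM on day 3 and 6.00 to 8.41 CPM on day 6. The other two were KRT19, with 66 to 203 counts and higher on day 6 than on day 1 (log2 fold change 1.17, adjusted p = 0.000484), and CLDN4, with 44 to 175 counts and lower (-1.14, adjusted p = 0.00015). Of 6 endothelial genes, 4 were tested, and in the late step TEK rose (0.46, adjusted p = 0.000837) and ESAM (-1.59, adjusted p = 4.33e-05) and PECAM1 (-0.19, adjusted p = 0.0227) fell. The shares were 25% that rose and 50% that fell, beside 26.4% and 23.4% of all tested genes. PECAM1 had 811 to 1024 counts in each library, and CDH5 at most 8, and the summed level was 40.2 to 41.8 CPM on day 1, 40.6 to 44.6 CPM on day 3 and 39.0 to 44.1 CPM on day 6. The part of such cells in the channel values was not tested.

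Promoter sequence was examined for CACNA1S, SCN2A, TRPM2 and SCN4B, which changed at least 2-fold in the late step with a mean of at least 1 CPM on some day. RefSeq windows of the assembly GRCh38.p14, from 250 bases before to 50 bases after an annotated start, were matched by symbol for 44 of the 55 tested genes and for these 4. Among the windows of a gene in that table the one furthest upstream is shown, because these genes carry large late changes. For CACNA1S and TRPM2 it lies at the 5′ end of the gene's span in the count table. For SCN2A its start lies 44.4 kb, and for SCN4B 7.46 kb, downstream of that end, so starts further upstream are not shown. Capitals mark a match to a searched motif on either strand. The windows are chr1:201112377-201112676 on the minus strand (CACNA1S), chr2:165239164-165239463 on the plus strand (SCN2A), chr21:44349891-44350190 on the plus strand (TRPM2) and chr11:118145384-118145683 on the minus strand (SCN4B).
CACNA1S: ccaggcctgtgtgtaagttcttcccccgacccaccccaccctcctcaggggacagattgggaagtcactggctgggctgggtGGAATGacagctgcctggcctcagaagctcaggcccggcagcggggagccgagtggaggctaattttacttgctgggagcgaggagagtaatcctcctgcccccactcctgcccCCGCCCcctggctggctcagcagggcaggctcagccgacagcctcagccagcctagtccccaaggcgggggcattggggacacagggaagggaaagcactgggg
SCN2A: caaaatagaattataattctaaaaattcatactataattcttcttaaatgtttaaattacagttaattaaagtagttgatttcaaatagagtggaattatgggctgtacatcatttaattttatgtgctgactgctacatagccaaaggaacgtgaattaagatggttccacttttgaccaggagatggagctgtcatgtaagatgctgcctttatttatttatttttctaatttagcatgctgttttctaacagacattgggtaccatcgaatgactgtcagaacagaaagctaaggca
TRPM2: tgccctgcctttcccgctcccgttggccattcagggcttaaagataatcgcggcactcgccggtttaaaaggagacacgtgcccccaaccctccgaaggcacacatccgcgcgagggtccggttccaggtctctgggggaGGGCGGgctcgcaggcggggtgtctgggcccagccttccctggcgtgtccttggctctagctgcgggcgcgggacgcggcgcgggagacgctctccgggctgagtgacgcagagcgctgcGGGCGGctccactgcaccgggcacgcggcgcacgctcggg
SCN4B: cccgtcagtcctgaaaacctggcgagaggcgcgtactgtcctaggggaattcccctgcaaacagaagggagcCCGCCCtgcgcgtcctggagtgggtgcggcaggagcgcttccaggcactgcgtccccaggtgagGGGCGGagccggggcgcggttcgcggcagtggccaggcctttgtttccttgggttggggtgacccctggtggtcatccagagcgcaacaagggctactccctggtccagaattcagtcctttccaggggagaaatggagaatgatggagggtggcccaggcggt

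The windows differed in base composition: GC content was 31.7% for SCN2A, 64.7% for SCN4B, 65.7% for CACNA1S and 70.3% for TRPM2. The motifs were searched on both strands. The TATA box of core promoters was taken as TATAAA. The GC box, bound by Sp factors, was taken as GGGCGG. AP-1 sites were searched as TGANTCA. The cyclic AMP response element was searched as TGACGTCA. TEAD sites, through which YAP and TAZ act, were taken as CATTCC. The SMAD box downstream of TGF-beta was taken as GTCTAG. The CArG box, bound by serum response factor, was searched as CCWWWWWWGG, where W is A or T. The capitals are a TEAD match and a GC box in CACNA1S, 2 GC boxes in TRPM2 and 2 GC boxes in SCN4B, and the SCN2A window held none of the motifs. A second SCN2A window, chr2:165240810-165241109 on the plus strand, held overlapping TATAAA matches. Over the 68 windows of the 44 channel genes, 57.4% held a GC box beside 45.0% of all 35116 windows, 11.8% a TATA box beside 11.5%, 10.3% a TEAD site beside 14.0%, 5.88% an AP-1 site beside 7.71%, 5.88% a SMAD box beside 5.87%, 1.47% a cyclic AMP response element beside 1.85%, and 1.47% a CArG box beside 1.29%. A match is a description of the letters and no evidence of binding.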

How the data were processed

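RNA was poly(A)-selected, per the labels' protocols, and random-primed. The submitters' processing notes name DRAGEN, STAR 2.7.11b, Subread, featureCounts 2.0.8 and Salmon 1.10.0 and the build GRCh38, with no role or order. The deposited table holds raw read counts per gene in 11 libraries. The strand setting is not given in the sources used here. Of its rows, 92 spike-in and 7 transgene rows name no human gene; they held at most 6.79e-06% of a library and were left out.

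Counts were filtered with filterByExpr (minimum count 10) and fitted with the edgeR 4.0.16 quasi-likelihood test (R 4.3.3, TMM factors) over all 11 libraries, with day as the factor. Adjusted p-values are Benjamini-Hochberg over 18245 genes. The code was tested on simulated data. Levels per kb use the longest GENCODE 29 transcript. Replicate pairs differed beyond sampling noise (chi-square per degree of freedom 3.84 to 29.6 over 15 pairs).

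Some genes are not reported here by name, although counts include them. The other tested genes called in a comparison between days are named, with each library's value for a gene that averaged at least 1 CPM on some day. Of each partner list, up to 2 genes per direction and comparison with the smallest adjusted p were to be named. The genes and lists were chosen with earlier results of these data known. DESeq2 1.42.0 and limma 3.58.1 were used as alternatives, beside other scalings, filters, blocks and libraries left out.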

Additional observations from a re-analysis of the deposited data

Results flagged for a closer look

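Within groups of 4 libraries, 7 of 106 gene and day combinations held 1 library far from its neighbours, by Dixon's criterion at the 95% level. Chance alone flags about 1 in 20 groups, or 5.3 here. CLCN5 was at 5.26 CPM in day 3 replicate 2, against 4.35 to 4.43 CPM in the other day 3 libraries. HCN2 was at 9.07 CPM in day 3 replicate 1, against 8.52 to 8.54 CPM in the others. In day 6 replicate 3, CLCN7 was at 87.5 CPM against 77.9 to 79.4 CPM, HCN2 at 4.61 CPM against 6.49 to 6.61 CPM, and SCN1A at 1.97 CPM against 0.403 to 0.636 CPM in the other day 6 libraries. In day 6 replicate 1, NALCN was at 0.223 CPM against 0.636 to 0.719 CPM. TRPV3 was at 0.313 CPM in day 6 replicate 2, against 0.604 to 0.636 CPM in the others.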

How the results depend on the processing

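Of 74 calls of channel genes in the 3 comparisons between days, 32 were lost under at least 1 of up to 20 alternatives. The other 42 were kept under every alternative in which the gene was tested. An alternative in which the gene did not pass the filter was not counted as a loss. Requiring an absolute log2 fold change of at least 1 left 0 genes higher and 3 lower in the early step, 5 higher and 2 lower in the late step, 5 higher and 3 lower on day 6 against day 1, and 6 in the difference between steps. TRPM8 is among the lower genes of the early step and of day 6 against day 1. CACNA1D and SCN7A are among the higher genes of the late step and of day 6 against day 1. These genes had to differ because of the filter. No share of all tested genes is given for this threshold, the blocks or the libraries left out, so those counts have no background here. A block for the letter in the column names left 4 lower in the early step and 8 lower on day 6 against day 1. Scaling by library totals left 8 lower in the late step and 7 lower on day 6 against day 1; it moved the median of all genes by 0.184 in the late step, 0.127 on day 6 against day 1 and -0.057 in the early step. Under that scaling the late change of CLCN3 was 0.182 (adjusted p = 0.0197, edgeR), of CLCN6 0.182 (adjusted p = 0.0363) and of PIEZO1 0.004 (adjusted p = 0.959), each opposite in sign to the reported value. Leaving out 1 library gave 2 to 4 higher and 3 to 10 lower in the early step, 15 to 19 higher and 13 to 16 lower in the late step, 11 to 14 higher and 8 to 13 lower on day 6 against day 1, and 16 to 21 in the difference between steps. Deviations of each gene from its day mean were correlated between libraries of different days. They gave -0.023 to 0.103 over 10 pairs with the same replicate number, and -0.083 to 0.022 over 8 pairs with the same column letter. The labels do not say whether numbers or letters mark a shared batch, and these correlations of few libraries cannot settle it. The replicate block gave 4 higher and 7 lower in the early step, 19 and 16 in the late step, 13 and 14 on day 6 against day 1, and 20 in the difference between steps. The cause of these shifts was not tested. Depth limits the genes below 1 CPM, where 3 counts correspond to 0.0909 to 0.115 CPM.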
